A study of Mus musculus with 3 samples.

Results

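The enzymes described here make collagen stable after it has been translated. They are the lysyl oxidases (Lox, Loxl1, Loxl2, Loxl3 and Loxl4), the lysyl hydroxylases (Plod1, Plod2 and Plod3) and the catalytic alpha subunits of prolyl 4-hydroxylase (P4ha1 and P4ha2). The 10 genes were chosen by name, and a gene's data were all probesets (short probe sets that mostly each cover part of 1 exon) whose platform annotation names that gene alone. This gave 185 probesets for 9 genes, of 318760 probesets with 1 gene name and 18865 genes tested in all. Lox was not analysed here, because no probeset in the annotation used names it.

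RNA came from GFP-positive cells sorted by flow cytometry straight from the bone marrow of C57BL/6 mice in which the nestin promoter drives GFP. It was hybridised to 3 arrays, titled Nestin1 to Nestin3 and called arrays 1, 2 and 3 here, and these form the only group. The reporter defines the cells by promoter activity, and the labels used here give no age, number of pooled animals or statement that the 3 samples came from separate mice or sorts. The p-values therefore rest on the spread among 3 samples that may be technical repeats.

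In the endoplasmic reticulum prolyl 4-hydroxylase converts proline to 4-hydroxyproline, which keeps the collagen triple helix stable at body temperature. Lysyl hydroxylases modify lysines in the same chains, and some of these hydroxylysines then carry sugars. Outside the cell the copper-dependent lysyl oxidases turn lysine and hydroxylysine into aldehydes, which react with neighbouring chains to form the covalent crosslinks of collagen and elastin. The hydroxylases need iron, oxygen, 2-oxoglutarate and ascorbate. In marrow the stromal cells around vessels and the osteoblasts are known makers of fibrillar collagen.

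The series has no other group, so members were set against a background measured on the same arrays. The background was 349 olfactory, vomeronasal and bitter taste receptor genes, which marrow cells are not known to use. Their 95th percentile, taken separately on each array, was the threshold, at 5.40, 5.63 and 5.58 (log2) on arrays 1, 2 and 3. A gene's level was the median of its probesets on the log2 RMA scale (the scale of the deposited array values), and its margin was the mean over the arrays of that level minus the threshold. A gene was called above background where the adjusted p was below 0.05 (limma, tested on 1 side for margins above 0, with the Benjamini-Hochberg adjustment across 18865 genes). Levels of different genes were not read as relative amounts of RNA, because probes differ in affinity. Margins were ranked to choose which genes of the pathway lists to name.

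Of the 9 measured members 8 were called above background, where 51.7% of all 18865 genes were called. The 8 called genes lay above the threshold on all 3 arrays, and Loxl4 lay above it on 1. The median margin was 2.51 over the 9 members and 0.54 over all genes tested. Against a stricter background of 74 genes restricted to other tissues, such as liver, retina, testis and kidney, 7 members were called, where 32.4% of all genes were. Against the 99th percentile of the chemosensory genes 6 members were called, where 22.7% of all genes were. Such calls describe whether a transcript gave a signal in the sorted population. In bulk RNA a transcript present in fewer cells and one present at less RNA per cell cannot be told apart.

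**Figure D1:**
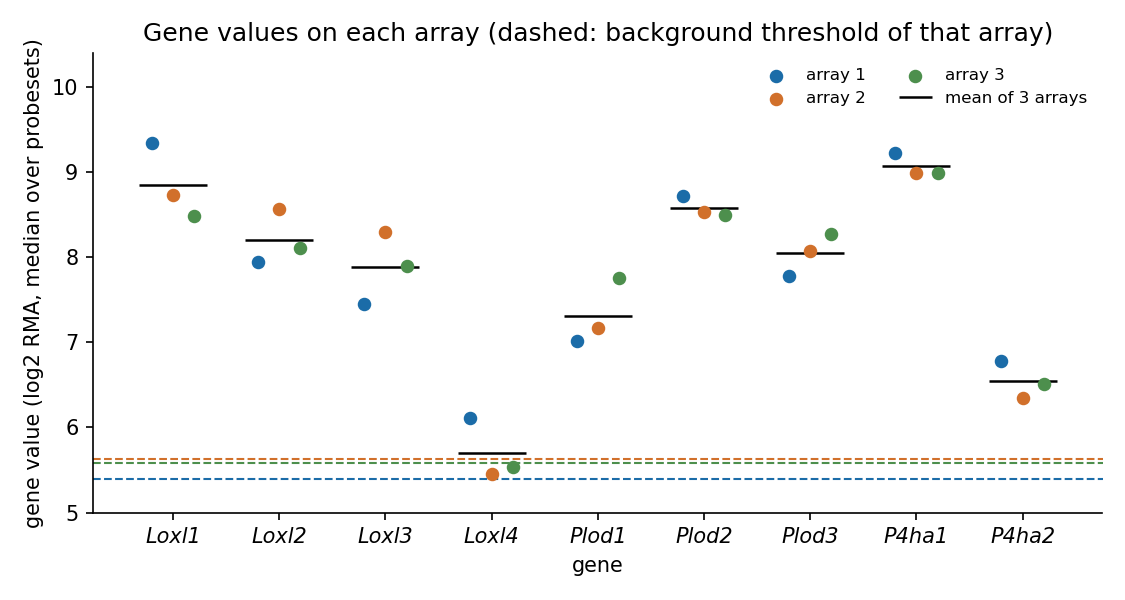
The gene value of each measured member (log2 RMA, median over its probesets) is plotted for arrays 1, 2 and 3, with a black bar at the mean of the 3 arrays and a dashed line at each array's background threshold. For Loxl4 the point of array 1 (6.11) lies above its line and those of arrays 2 and 3 (5.46 and 5.53) lie below theirs, while all points of the other 8 genes lie above the lines.

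The sorted cells carried the markers of perivascular stroma. In a list of 13 such markers 12 were called, with Cxcl12 at 11.75 ± 0.14 (SD, n = 3) and the leptin receptor gene Lepr at 11.38 ± 0.12, while the nestin gene itself, Nes, was not called, with 5.97, 5.21 and 5.56 on arrays 1, 2 and 3 (adjusted p = 0.67, limma). Osteoblast markers were called in 8 of 8 cases and chondrocyte markers in 6 of 7, against 2 of 9 for pan-leukocyte and 2 of 6 for megakaryocyte markers, each down to 1 without array 1 or without array 3. Of all genes 51.7% were called. Against the 99th percentile 12 perivascular, 6 osteoblast and 2 chondrocyte markers were called, where 22.7% of all genes were. The leukocyte gene Ptprc had a mean of 4.68 and the platelet factor gene Pf4 one of 5.40, both under the threshold. The other marker lists gave 6 of 9 calls for smooth muscle and pericytes, 5 of 6 for neutrophils, 2 of 8 for macrophages and 3 of 7 for erythroid cells. Against the 99th percentile these lists gave 4, 3, 0 and 1 calls in the same order. Picked after the values were seen, the neutrophil gene S100a8 had a mean of 9.81 and the haemoglobin gene Hbb-b1 one of 9.79. Both were called. Endothelial markers were called in 10 of 14 cases, in 5 without array 1 or with no filter on probesets, in 4 against the other-tissue background and in 3 against the 99th percentile. The counts of 4 and 3 are near the shares of all genes called, 32.4% and 22.7%. The shares of all genes called with an array left out or with no filter are not given here. All 14 endothelial markers were lowest on array 2. The endothelial list's summed level (log2 of the sum of linear values) was 11.61, 9.79 and 11.97 on arrays 1, 2 and 3, and that of the perivascular list 14.42, 14.44 and 14.31. No marker measured was listed at 0.

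Among the lysyl oxidases Loxl1, Loxl2 and Loxl3 were called and Loxl4 was not. Loxl1, an enzyme known for the maintenance of elastic fibres, had 9.35, 8.73 and 8.48 on arrays 1, 2 and 3. Its mean of 8.85 ± 0.44 (SD, n = 3) lay 3.32 ± 0.24 (SE) above the threshold (adjusted p = 1.78e-05, limma). Array 1 was the highest and array 3 the lowest for this gene. Of its 16 probesets 11 were highest on array 1 and 12 were lowest on array 3, not always the same ones. Of the 16, 15 were higher on array 1 than on array 3 and 0 were highest on array 3. Among all 88668 named probesets above the probeset threshold on all 3 arrays, 39.0% were highest on array 1 and 24.1% on array 3. Of the 16 probesets of Loxl1 12 met that condition, so these shares cover unlike sets.

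Loxl2, which crosslinks collagen IV in basement membranes, had 7.94, 8.57 and 8.10 on arrays 1, 2 and 3. Its mean was 8.20 ± 0.32 (SD, n = 3), with a margin of 2.67 ± 0.18 (SE; adjusted p = 1.29e-05, limma). Array 2 was the highest and array 1 the lowest. Of its 19 probesets 10 were highest on array 2 and 11 lowest on array 1.

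Loxl3, a close relative of Loxl2 needed for the palate and the spine of the mouse, had 7.45, 8.30 and 7.90 on arrays 1, 2 and 3. The mean of 7.88 ± 0.43 (SD, n = 3) gave a margin of 2.35 ± 0.19 (SE; adjusted p = 2.96e-05, limma). By this gene value array 2 stood 0.85 above array 1. Single probesets did not share that difference, since 9 of 18 were higher on array 1 than on array 2 and the median of the 18 differences (array 1 minus array 2) was 0.03. The median of the gene fell in a gap between 9 brighter and 9 dimmer probesets, next to a probeset (4940727) that had 5.61, 9.39 and 6.85 on arrays 1, 2 and 3, the largest range of the gene.

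Loxl4, the other member with several scavenger receptor domains besides Loxl2 and Loxl3, had 6.11, 5.46 and 5.53 on arrays 1, 2 and 3. Its mean of 5.70 ± 0.36 (SD, n = 3) was 0.17 ± 0.22 (SE) above the threshold and did not pass (adjusted p = 0.394, limma). Only array 1 lay above its threshold, and without array 1 the margin was -0.11. This result cannot tell a low level from absence. Of its 15 probesets 1 was called, probeset 4619056, with 8.40, 9.99 and 8.74 on arrays 1, 2 and 3. Another, probeset 4794677, was bright on array 1 alone, with 9.51, 4.84 and 5.69 on the 3 arrays. Its range of 4.67 was the largest among the 185 probesets.

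All 3 lysyl hydroxylases were called. Plod1, which hydroxylates lysines of the helical part of collagen and is mutated in a kyphoscoliotic form of Ehlers-Danlos syndrome, had 7.01, 7.17 and 7.76 on arrays 1, 2 and 3. Its mean was 7.31 ± 0.39 (SD, n = 3) and its margin 1.78 ± 0.19 (SE; adjusted p = 0.000123, limma). Against the 99th percentile of the chemosensory genes its margin was 0.68 and it was not called (adjusted p = 0.0522, limma). Array 3 was the highest by gene value, while by single probesets 9 of 23 were highest on array 2 and 7 on each of arrays 1 and 3.

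Plod2 encodes the enzyme that hydroxylates lysines of the telopeptides, the ends of the chains where the stable hydroxylysine-derived crosslinks start. It had 8.72, 8.53 and 8.50 on arrays 1, 2 and 3, a range of 0.22 by gene value and 0.30 by the median of probeset deviations, each probeset being set against its own mean over the arrays. Its mean was 8.58 ± 0.12 (SD, n = 3), with a margin of 3.05 ± 0.18 (SE; adjusted p = 7.7e-06, limma). The 3 arrays were close for its brightest probeset too, 4644722, with 12.49, 12.42 and 12.34.

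Plod3, which besides hydroxylating lysine also adds glucose to galactosyl-hydroxylysine, had 7.78, 8.08 and 8.28 on arrays 1, 2 and 3. The mean was 8.04 ± 0.25 (SD, n = 3) and the margin 2.51 ± 0.17 (SE; adjusted p = 1.37e-05, limma). Array 1 was the lowest for the gene value and for 13 of its 25 probesets. The median difference over probesets between arrays 1 and 3 (1 minus 3) was -0.08, compared with a difference in gene value from 7.78 to 8.28. By gene value array 3 was the highest for Plod1 and Plod3, while by the median of probeset deviations array 2 was, with 0.17 for Plod1 and 0.032 for Plod3. Array 3 was the highest in summed level for the neutrophil markers, with 10.51, 10.52 and 11.45 on arrays 1, 2 and 3, and for the macrophage markers, with 9.34, 8.80 and 10.16. The macrophage marker Mrc1, with 8.39, 4.44 and 9.15, was not called (adjusted p = 0.0669, limma). Array 3 was also the highest for the endothelial, erythroid (10.78, 9.25 and 10.89) and pan-leukocyte lists (8.84, 8.46 and 9.20). The part of these cell types in the values of Plod1 and Plod3 was not tested.

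Both prolyl 4-hydroxylase alpha subunits were called, with different support from their probesets. P4ha1, the main isoform in most cells, had 9.22, 8.995 and 8.99 on arrays 1, 2 and 3, and P4ha2, the isoform known from chondrocytes, osteoblasts and endothelium, had 6.78, 6.35 and 6.51. All values of both genes lay above the threshold of their array. The mean of P4ha1 was 9.07 ± 0.13 (SD, n = 3), with a margin of 3.53 ± 0.18 (SE; adjusted p = 4.81e-06, limma). The mean of P4ha2 was 6.54 ± 0.22, with a margin of 1.01 ± 0.19 (SE; adjusted p = 0.00187, limma). Against the other-tissue background the margin of P4ha2 was 0.32 and it was not called (adjusted p = 0.125, limma), and against the 99th percentile it was -0.09.

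P4ha2 had the largest median range of a probeset over the arrays among the members, 1.29, compared with 0.66 in Loxl1 at the other end. Of its 23 probesets 13 were highest on array 1 and 15 were lowest on array 2. Of all probesets above the probeset threshold on all 3 arrays 31.9% were lowest on array 2. Only 7 of the 23 met that condition, so these shares cover unlike sets. The median over its probesets of each probeset's deviation from its own mean was 0.32, -0.56 and -0.08 on arrays 1, 2 and 3. Array 2 was also the lowest for all 14 endothelial markers, and the part of endothelial RNA in the P4ha2 signal was not tested. Probeset 5541935 had 9.04 on array 1 and 5.18 and 5.92 on arrays 2 and 3, the largest range of this gene. In P4ha1 12 of 24 probesets were highest on array 1 and 12 were lowest on array 2. The largest range in P4ha1 was that of probeset 4552701, with 4.35, 2.70 and 7.29, while its brightest, 4316506, had 12.07, 11.64 and 11.91.

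Single probesets were tested in the same way, each against the 95th percentile of the 3923 probesets of the chemosensory genes, which was 6.95, 7.17 and 6.96 on arrays 1, 2 and 3. Of the members' 185 probesets 89 (48.1%) were called, where 21.2% of all 318760 named probesets were. Every measured member had at least 1 called probeset, but the share of all genes with at least 1 is not given here. P4ha1 had 16 of 24 called, Plod2 15 of 22, Plod3 13 of 25, Loxl1 10 of 16, Loxl2 10 of 19, Plod1 10 of 23, Loxl3 9 of 18, P4ha2 5 of 23 and Loxl4 1 of 15. Without array 3 the counts fell to 5 for Plod1, 8 for Plod3, 6 for Loxl2 and 2 for P4ha2, without array 2 to 6 for Loxl2, and without array 1 to 3 for P4ha2. The share of all named probesets called with an array left out is not given here. Probesets of 1 gene share a transcript and an RNA sample, so they are no replicates of the sample.

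Within a gene the probesets differed more than the arrays did. The SD between the probeset means of a gene ran from 1.42 in P4ha2 to 2.15 in Plod2, and the median SD of a probeset between arrays from 0.33 in Loxl1 to 0.66 in P4ha2. The lowest probeset means were 2.41 in Loxl4 (4410040), 2.69 in Plod2 (5186231), 3.08 in Loxl2 (4489340) and 3.82 in Plod3 (4373730). Each gene with a call also held probesets under the threshold, so a call rests on part of its probesets. Probe affinity and exon use cannot be told apart in these values.

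**Figure D2:**
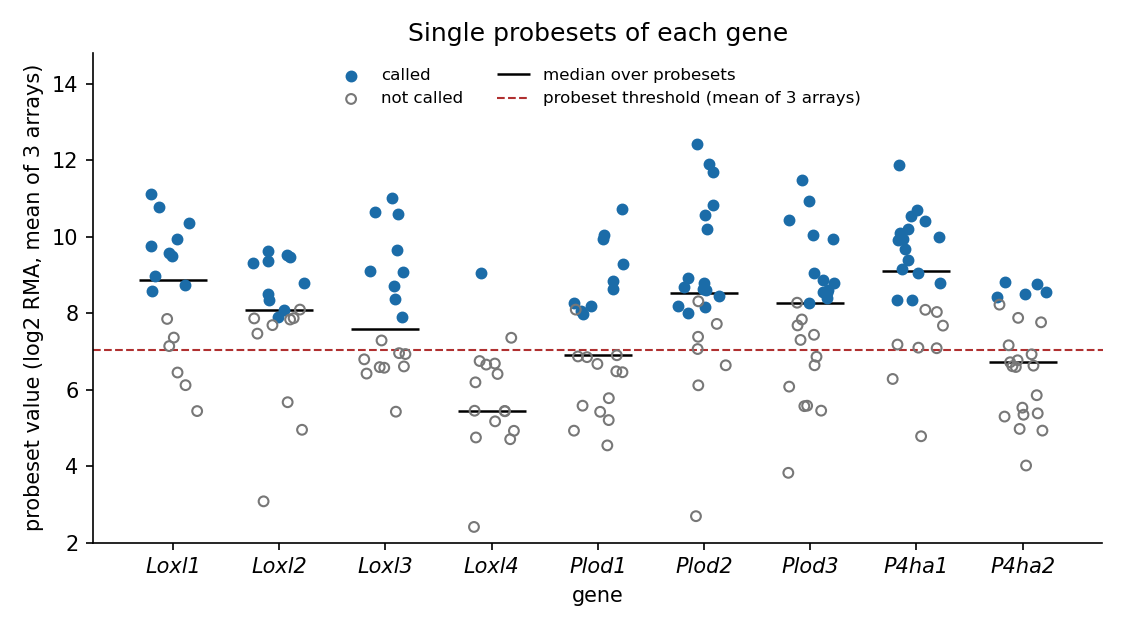
Each point is 1 probeset of a member, placed at its mean log2 RMA value over the 3 arrays, filled where limma called it above the probeset threshold (red dashed line, mean of the 3 arrays) and open where it did not; black bars mark the median over probesets. The filled points run from 1 of 15 in Loxl4 and 5 of 23 in P4ha2 to 16 of 24 in P4ha1 and 15 of 22 in Plod2.

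The members did not share 1 order of the arrays. By gene value array 1 was the highest for 5 of the 9 members, array 2 for 2 and array 3 for 2. The range over the arrays ran from 0.22 in Plod2, close to 0.23 in P4ha1, to 0.86 in Loxl1, with a median of 0.62, compared with 0.54 over all called genes. None reached a range of 1, so no gene was sought as most like a member in its pattern. Each array is a single sample, so these differences have no replicate and were not tested.

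The order depended on how probesets were combined. When deviations were taken within each probeset and then summarised by their median, an alternative chosen after seeing the data, the median range of the members was 0.43. The highest array stayed the same for 6 of 9 members and the lowest for 6 of 9. For Loxl1 both measures put array 1 highest, with 0.49 by gene value and 0.24 by probeset deviations, and array 3 lowest, with -0.37 and -0.30. For Loxl2 both put array 2 highest, with 0.36 and 0.24. For Plod1 the gene value put array 3 highest, with 0.44, and the probeset deviations put array 2 highest, with 0.17, leaving array 3 at 0.04. For Loxl4 the highest array changed from 1 to 2.

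**Figure D3:**
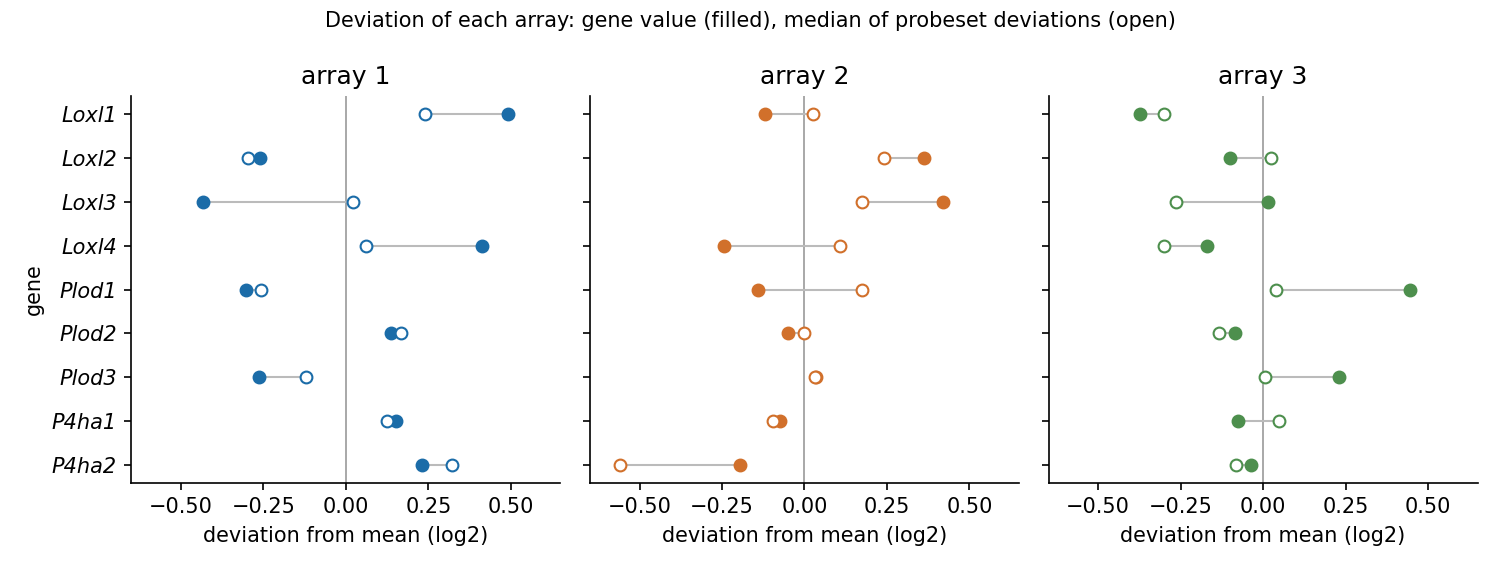
For arrays 1, 2 and 3 the deviation of each member from its mean over the arrays (log2) is shown by gene value (filled) and as the median of the deviations of its single probesets (open), joined by a grey line. Long grey lines, as for Loxl3 on array 1 (-0.43 and 0.02) and Plod1 on array 3 (0.44 and 0.04), mark genes whose array difference changed with the measure.

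Other collagen modification and folding genes were called in 11 of 12 measured cases, where 51.7% of all genes were, with a median margin of 2.31. Against the other-tissue background 9 were called, where 32.4% of all genes were. Fkbp10 was not analysed here. P4hb, the protein disulfide isomerase that forms the other subunit of prolyl 4-hydroxylase, had 9.75, 10.25 and 9.85 on arrays 1, 2 and 3 (adjusted p = 2.37e-06, limma). Ppib, the cyclophilin of the prolyl 3-hydroxylation complex, stood at 10.56 ± 0.12 (SD, n = 3) and P3h2, a prolyl 3-hydroxylase, at 9.54 ± 0.26. P4ha3, the remaining alpha subunit gene, had 5.77, 6.80 and 6.09. It was called (adjusted p = 0.0154, limma), but not without array 2 (adjusted p = 0.0973, limma) and not against the other-tissue background. Colgalt2, one of the galactosyltransferases that act on hydroxylysine, had 5.05 ± 0.19 and was the member of this list that did not pass (adjusted p = 1, limma).

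Of 14 genes for procollagen processing and secretion 8 were called, with a median margin of 2.02. Pcolce, the enhancer of the C-proteinase, stood at 10.25 ± 0.40 (SD, n = 3), Adamts2, an N-proteinase of procollagen, at 9.51 ± 0.42 and Mia2, a gene of endoplasmic reticulum export sites, at 8.47 ± 0.08. The share called in this list, 8 of 14, is near the 51.7% of all genes. Against the other-tissue background 8 of the 14 were called too, where 32.4% of all genes were. Against the 99th percentile 7 were called, where 22.7% of all genes were. The C-proteinase gene Tll1, at 4.40 ± 0.12, was among the 6 that did not pass (adjusted p = 1, limma). Of 15 genes for substrates, scaffolds and copper supply of lysyl oxidases 12 were called, with a median margin of 1.68. Fbln5, a scaffold of elastic fibres, stood at 10.22 ± 0.32, Efemp2, the fibulin that brings lysyl oxidase to elastin, at 9.23 ± 0.14 and the collagen gene Col1a2 at 9.12 ± 0.39. Fmod, a small proteoglycan that binds collagen, was not called, with 5.73, 5.20 and 5.92 on the arrays (adjusted p = 0.57, limma), though the mean over its 5 probesets was (adjusted p = 0.047, limma).

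Other oxoglutarate-dependent hydroxylases, which use the same cofactors on other substrates, were called in 5 of 8 cases with a median margin of 0.95. Asph, an aspartyl hydroxylase, stood at 7.75 ± 0.21 (SD, n = 3), Egln2, a prolyl hydroxylase of hypoxia-inducible factors, at 7.33 ± 0.36 and the ribosomal prolyl hydroxylase gene Ogfod1 at 6.92 ± 0.67. The call of Ogfod1 was lost against the other-tissue background (adjusted p = 0.0658, limma) and against the 99th percentile (adjusted p = 0.442, limma). Egln3, itself a hypoxia target, stood at 4.97 ± 0.16 and was not called (adjusted p = 1, limma). The share called in this list, 5 of 8, is near the 51.7% of all genes.

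**Figure D4:**
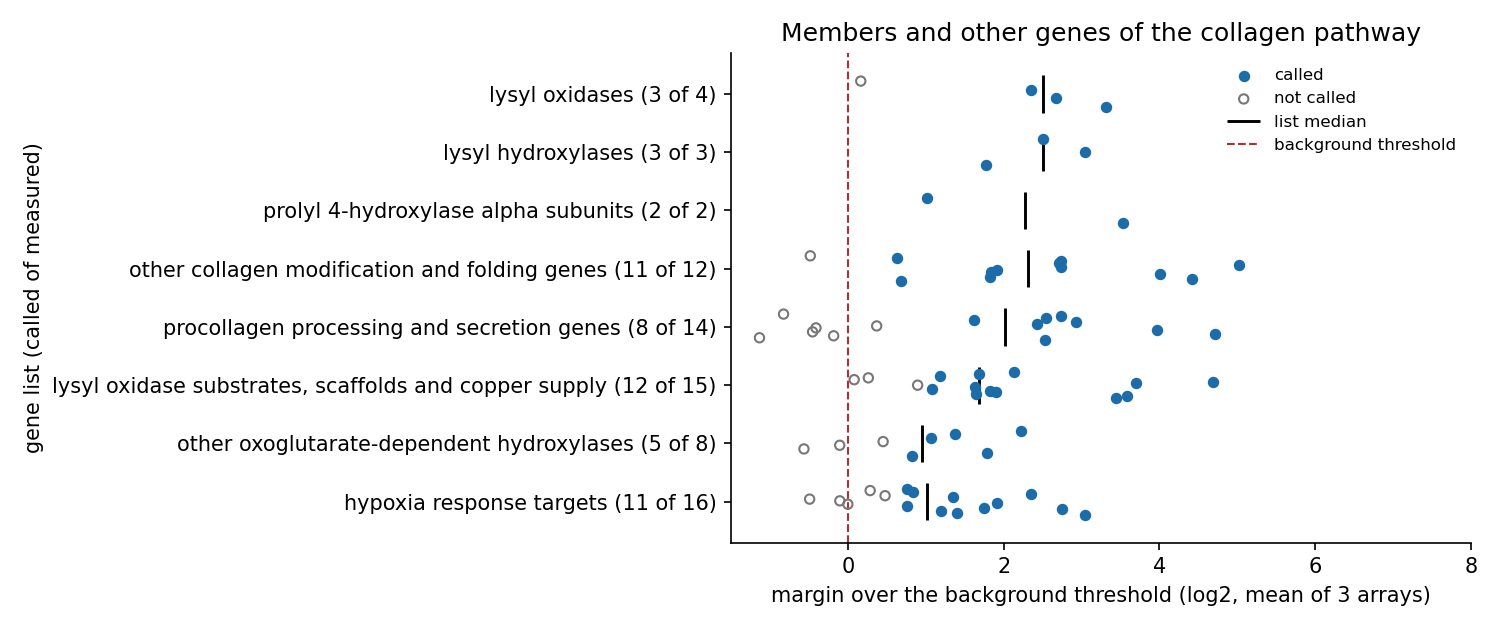
Margins over the background threshold (log2, mean of 3 arrays) are plotted for each gene of the member families and of the other lists, filled where called, with a black bar at the list median and a red dashed line at the threshold. List medians lie between 0.95 for other oxoglutarate-dependent hydroxylases and 2.51 for lysyl oxidases and lysyl hydroxylases.

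Several collagen-modifying enzymes, P4ha1, P4ha2, Plod2 and Lox among them, are known targets of hypoxia-inducible factors, so the promoters of the members and a list of hypoxia targets were described too. The RefSeq promoter table (build GRCm38.p6) held 5 of the 10 members, namely Plod1, Plod3, P4ha1, P4ha2 and Loxl4. In the 250 bases before the start all 5 held a core hypoxia response sequence, ACGTG or GCGTG on either strand, and so did 38.6% of all 32851 promoters in the table. Plod3 held 4 cores, and Plod1 and Loxl4 held 1 each. Both cores contain CG, and G and C made up 55.6% (Plod3) to 76% (Loxl4) of these 5 promoters. The share with a core among promoters of like composition was not counted. The GC box GGGCGG, searched on both strands and able to share bases with a core, was present in 4 of the 5 and in 32.7% of all promoters, and TATAAA, on either strand, in 1 of the 5 and in 12.4%. The promoters of both alpha subunit genes, which held 3 cores each, are shown 5′ to 3′ on the gene's strand, with the cores in capitals (P4ha1 at chr10:59323046-59323295, P4ha2 at chr11:54100674-54100923, both on the plus strand). They are given because the cores lie at different places in this pair of isoform genes.
P4ha1: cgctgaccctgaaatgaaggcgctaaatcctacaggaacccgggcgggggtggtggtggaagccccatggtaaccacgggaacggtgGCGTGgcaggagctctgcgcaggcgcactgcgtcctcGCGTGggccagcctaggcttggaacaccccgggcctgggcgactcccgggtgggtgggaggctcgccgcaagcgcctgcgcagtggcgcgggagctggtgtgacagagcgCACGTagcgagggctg
P4ha2: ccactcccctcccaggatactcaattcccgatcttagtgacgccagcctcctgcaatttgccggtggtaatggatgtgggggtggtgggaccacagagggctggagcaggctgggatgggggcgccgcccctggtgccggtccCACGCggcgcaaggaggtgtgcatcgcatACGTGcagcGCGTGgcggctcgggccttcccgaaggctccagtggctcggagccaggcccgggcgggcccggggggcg

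The cores of P4ha1 began 163, 126 and 16 bases before the start and those of P4ha2 107, 78 and 69 bases before it. Such matches describe letters and are not shown to be bound. The hypoxia target list itself had 11 of 16 genes called, where 51.7% of all genes were, with a median margin of 1.02. Against the other-tissue background 7 of the 16 were called, where 32.4% of all genes were. Vegfa stood at 8.58 ± 0.45 (SD, n = 3), the lactate dehydrogenase gene Ldha at 8.29 ± 0.06 and the aldolase gene Aldoa at 7.88 ± 0.17. The pyruvate dehydrogenase kinase gene Pdk1, at 5.04 ± 0.39, was not called (adjusted p = 1, limma). Against the 99th percentile 4 of the 16 were called, near the 22.7% of all genes. Without a filter on the number of probesets 7 of the 16 were called, and the share of all genes in that run is not given here.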

How the data were processed

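The deposited values are log2 expression per probeset. The submitters' processing notes name Affymetrix Expression Console 1.1 and RMA, a method that subtracts background, brings the arrays to 1 distribution and combines the probes of a set. The RMA settings and genome build were not given in the sources used here. The deposited table held 1256831 probesets on 3 arrays, with medians from 5.20 to 5.24. The platform annotation gave 1 symbol for 318760 probesets, and older symbols were updated through RefSeq synonyms (GRCm38.p6). Genes needed at least 4 probesets. Intercept-only models were fitted with limma 3.58.1 in R 4.3.3 across all genes, and across all named probesets, to values minus the array's background threshold. The fit was tested on simulated data. The number of arrays limits the precision. The members and lists were chosen with earlier results of these data known. Named by rule were all members, P4hb and P4ha3, up to 3 called genes with the largest margin and the 1 with the smallest of each pathway list, 6 markers, and each member's brightest, dimmest or most variable probesets. Other named genes were picked from the lists outside this rule. The alternatives were the mean over probesets, other backgrounds, no filter on probesets, another variance prior, zeros left out and each array left out.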

Additional observations from a re-analysis of the deposited data

How the results depend on the processing

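The count of called members was 8 of 9 in every alternative run except the 99th percentile (6) and the other-tissue background (7). The members' called probesets numbered 24 with the 99th percentile and 40 with the other-tissue probesets, and 65 to 74 with 1 array left out. The shares of all named probesets called in these runs are not given here, so a loss particular to the members cannot be read from these counts. Called pathway genes numbered 47 of 65 and 30 with the 99th percentile. Called cell type markers numbered 56 of 87, 31 with the 99th percentile and 36 with the other-tissue background. Of all genes 51.7% were called in the main run, 22.7% with the 99th percentile and 32.4% with the other-tissue background. The shares of all genes in the other runs are not given here. The median range of the members over the arrays was 0.62, and 0.20 to 0.45 over the pairs of arrays left when 1 was left out, the lowest without array 1, and 0.37 with the mean over probesets. Margins that changed sign with the 99th percentile were -0.94 for Loxl4, -0.094 for P4ha2, -0.42 for P4ha3, -1.06 for Nes and -1.02 for Fmod. With the other-tissue background they were -0.53 for Loxl4, -0.0098 for P4ha3, -0.65 for Nes and -0.61 for Fmod. The 99th percentile is a higher threshold by construction. The other-tissue threshold was higher by the measured values of its genes, at 6.22, 6.25 and 6.22 on arrays 1, 2 and 3. With no filter on probesets they were -0.34 for Loxl4, -0.46 for Nes and -0.42 for Fmod. With 1 array left out in turn the margins ran from -0.11 to 0.33 for Loxl4, from -0.22 to 0.27 for Nes, from -0.048 to 0.33 for Fmod and from -0.26 to 0.034 for Pf4, with the sign changed without array 1 for all 4 and also without array 3 for Fmod. The call of Cdh5 was lost without array 1 (adjusted p = 0.0605, limma) and with the 99th percentile (adjusted p = 0.0547, limma). Of 324 margins of the 36 genes named by rule 298 kept both their sign and their call under the alternatives. Of 198 counts of called genes per list and of called probesets per member 149 were rated the same, with small shifts allowed. Leaving out probesets at exactly 0 changed nothing, since no named probeset was at 0. No paired analysis was possible because there is only 1 group. Depth does not apply to arrays, and signal over background limits Loxl4, P4ha2 and P4ha3.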

Other observations

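Several genes of the list of substrates, scaffolds and copper supply of lysyl oxidases differed between the arrays more than the members did. Others did not, such as the collagen genes Col1a2, with 9.56, 8.83 and 8.97 on arrays 1, 2 and 3, and Col3a1, with 7.16, 7.29 and 7.10. The genes with large differences were singled out after their values were seen. The collagen gene Col1a1 had 10.10, 8.19 and 8.65 on arrays 1, 2 and 3, the fibronectin gene Fn1 had 8.41, 5.77 and 7.33, and Postn, whose product periostin is a scaffold for collagen crosslinking, had 7.96, 4.72 and 6.61. All 3 were highest on array 1 and lowest on array 2, and array 2 was the lowest for 10 of the 15 genes of that list. Atp7a, the copper pump that loads lysyl oxidases, followed the same order with 7.87, 6.70 and 7.08. Postn was not called above background (adjusted p = 0.146, limma). Among the members P4ha2 had this order too. P4ha1 had it by the median of its probeset deviations (0.12, -0.09 and 0.05) but not by gene value. Loxl4 had it by gene value but not by the median of its probeset deviations (0.06, 0.11 and -0.30), while Loxl2 and Loxl3 were highest on array 2 by gene value. Endothelial markers were lowest on array 2 as well, all 14 of them, and their part in these differences was not tested.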
